A study of Saccharomyces cerevisiae with 8 samples.

Results

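LDB7 and the genes of 4 proteins that share a module with it in the RSC chromatin remodeller, RSC3, RSC30, NPL6 and HTL1, were followed across 8 two-channel arrays of budding yeast RNA. All 5 genes were measured, among 6465 genes tested. LDB7 was chosen by its log2 ratios, which passed the threshold with 1 sign in both strain comparisons as labelled, so those ratios are a description with no test. The 4 partners were added for their known place in the complex, not for their values.

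RSC is an abundant and essential remodeller of Saccharomyces cerevisiae that uses ATP to slide and evict nucleosomes, and it keeps the promoters of many genes clear of them. Sth1 is its ATPase. Rsc3 and Rsc30 are related zinc cluster proteins that bind DNA, and they associate with Npl6 (also called Rsc7), Htl1 and Ldb7 (also called Rsc14) in a module of the complex. LDB7 takes its name, low dye binding, from mutant cells that bind less of a cationic dye, which attaches to mannosylphosphate groups of the cell wall.

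On 4 arrays a double mutant was hybridised with wild type, and on the other 4 the double mutant was hybridised with a triple mutant. The double mutant carried pdr5-∆1::hisG and yor1-1::hisG, which disrupt a pair of plasma membrane ABC transporters. The triple mutant carried pdr1::kanMX4 as well, which disrupts a transcription factor of drug resistance. All 3 strains had the SEY6210 background. The labels give its wild type as GAL and MATα with the marker alleles his3-∆200, leu2-3,-112, lys2-801, suc2-∆9, trp1-∆901 and ura3-52. Cultures were shaken in YPD at 30 °C and taken at an OD600 near 0.6. In each comparison the double mutant carried the red dye Cy5 on arrays 1 and 3 and the green dye Cy3 on arrays 2 and 4. Whether arrays came from separate cultures is not stated, so p-values reflect the spread between arrays, which may be technical, and the number of arrays limits the precision. All ratios below are log2 ratios of background-corrected, loess-scaled intensities, taken as double mutant over wild type or as labelled double mutant over labelled triple mutant. Both comparisons hold the double mutant.

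The disrupted genes were read first. PDR5 was lower in the double mutant than in wild type, with log2 ratios of -1.14, -1.47, -1.62 and -1.62. YOR1 was higher in it, with 2.04, 2.15, 1.75 and 1.83, and the position of the probes against the hisG cassettes is not given in the sources used here. On the arrays with the labelled triple mutant PDR5 had a mean of -0.14 and YOR1 had -1.88, -1.48, -1.76 and -1.54 (mean -1.67, limma adjusted p 1.81e-05). PDR1 went against the labels on these arrays. Its log2 ratio there was -2.88, -1.12, -2.81 and -2.63, and its 2 probes were well above background in 0 of 8 measurements of the channel labelled double mutant, against 8 of 8 of the channel labelled triple mutant. The channel labelled triple mutant exceeded the channel labelled double mutant in PDR1 by a factor of at least 4.8, computed from a floor set by the dimmest probes well above background (limma adjusted p 0.00196). On the arrays with wild type the 2 PDR1 probes were well above background in 8 of 8 measurements of the double mutant and 8 of 8 of wild type. Directions drawn from the 4 arrays with the labelled triple mutant are therefore those of the labels and would turn in sign if the channel labels were exchanged. Median signals per array ran from 401.7 to 1300.3 in Cy5 and from 116.9 to 1041.8 in Cy3. On array 2 with the triple mutant, 1294 of 13092 probes (9.88%) were at least 1.5 log2 units dimmer than on the other arrays, most of them in 1 patch of the slide. The probes used for NPL6, HTL1 and CUP1-2 were dimmed there, and those of LDB7 and RSC30 were not. Array 4 with wild type stood apart in 4 a-specific mating genes. Its log2 ratios were -1.99 for AGA2, -1.12 for MFA2, -1.07 for STE2 and -0.88 for MFA1. The other 3 arrays gave -0.34 to 0.03 for these 4 genes. BAR1, also a-specific, had -0.04, 0.14 and -0.02 on arrays 1 to 3 and only -0.13 on array 4. The part of that array in the results below was measured by leaving it out.

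LDB7 (YBL006C) was higher in the double mutant than in wild type on all 4 arrays, and on the other 4 the labelled double exceeded the labelled triple mutant. Its log2 ratio of the double mutant to wild type was 0.67, 0.19, 0.47 and 0.33 on arrays 1 to 4. The mean was 0.42 ± 0.206 (SD, n = 4), a fold of 1.33. With the labelled triple mutant the log2 ratio was 0.53, 0.12, 0.64 and 0.14, and the mean 0.36 ± 0.267 (SD, n = 4), a fold of 1.28. The 2 sets of values overlapped over most of their range, and none was below 0. As labelled, both means put LDB7 highest in the double mutant. With the sign of the second set turned, LDB7 would be lowest in wild type and highest in the triple mutant. Fitted without array 2 with the triple mutant, which leaves the orientations unequal and is adjusted by the dye term, the second log2 ratio was 0.37. The first was also 0.37 when fitted without array 4 with wild type.

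The values of LDB7 split by dye. With the double mutant in Cy5 its log2 ratio averaged 0.57 with wild type and 0.59 with the labelled triple mutant. With the double mutant in Cy3 the means were 0.26 and 0.13. Each of the 4 ratios with the double mutant in Cy5 lay above each of the 4 with it in Cy3, which held for 5.06% of all genes tested. The dye term of the fit, common to both comparisons, was 0.19 on the log2 scale for LDB7 (limma adjusted p 0.144). By that term 2 genes (0.0309%), both higher in Cy5, were called. With the triple mutant, ratios correlated at 0.79 between arrays 1 and 3 and at 0.73 between arrays 2 and 4. Arrays of opposite orientation there gave -0.07 to 0.35. With wild type the same pairs gave 0.54 and 0.34, and opposite ones 0.29 to 0.45. Because each comparison held both orientations equally, a constant dye effect cancels in the means above. The second LDB7 probe gave means of 0.43 ± 0.149 with wild type and 0.35 ± 0.315 with the labelled triple mutant (SD, n = 4 each), and its 8 values were also above 0 and highest in Cy5.

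**Figure D1:**
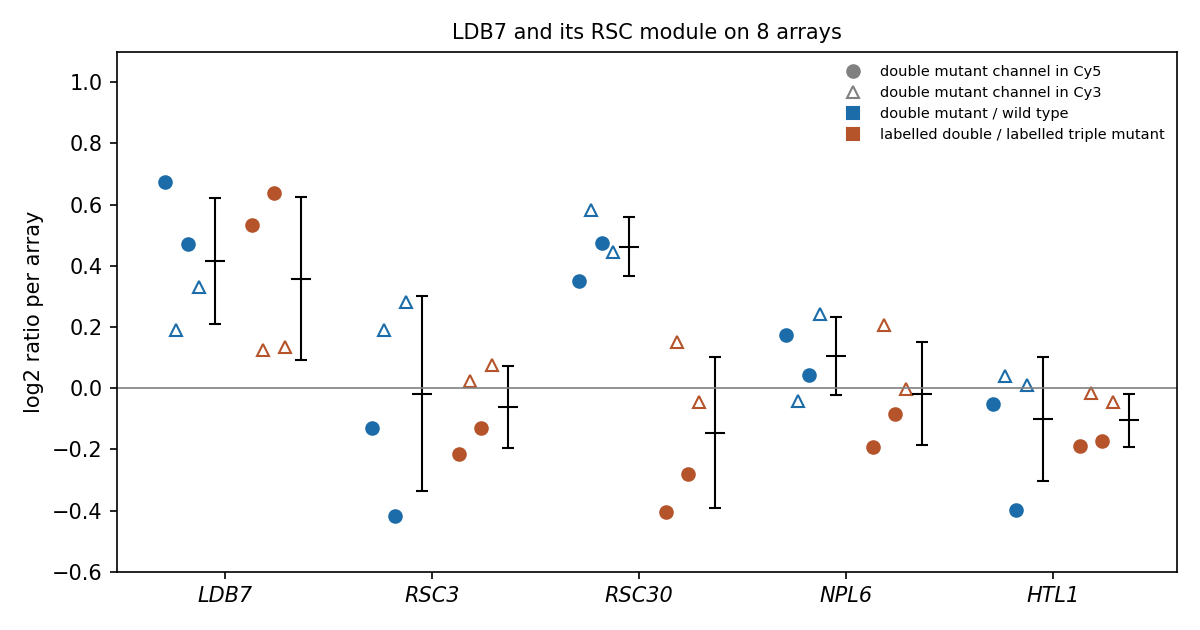
Log2 ratio per array (vertical axis) of the 5 module genes, for the double mutant over wild type and for the labelled double over the labelled triple mutant. Points are arrays, marked by the dye of the double mutant. Dashes are means of 4 arrays, and their bars are SDs. LDB7 lies above 0 on all 8 arrays, and RSC30 lies between 0.35 and 0.58 with wild type and between -0.40 and 0.15 with the labelled triple mutant.

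The rule that chose LDB7 is met by few genes. Between the double mutant and wild type 530 of 6465 genes were called (8.2%) at a limma adjusted p below 0.05, with 209 higher (3.23%) and 321 lower (4.97%). Between the labelled double and the labelled triple mutant 103 genes were called (1.59%), with 68 higher (1.05%) and 35 lower (0.541%). Calls with 1 sign in both comparisons were made for 3 genes (0.0464%), and calls with opposite signs for 65 (1.01%). Besides LDB7, the 3 genes were PDR15, an ABC transporter of the drug resistance family, with log2 ratios of 0.50 and 0.56, and PAU12, a seripauperin gene, with 0.27 and 0.32. The genes nearest to the rule without meeting it were PTA1, a subunit of the pre-mRNA cleavage and polyadenylation factor, with 0.17 and 0.30, and FUS1, a gene of cell fusion in mating, with -0.20 and -0.25. By the size of its mean, LDB7 ranked 365 of 6465 with wild type and 163 with the labelled triple mutant. LDB7 met the rule under 13 of 23 other settings of the processing, and the number of genes that met it ran from 0 to 18.

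RSC30 (YHR056C), which encodes the zinc cluster relative of Rsc3, rose in the double mutant against wild type. Its log2 ratio was 0.35, 0.58, 0.47 and 0.44 on arrays 1 to 4. The mean was 0.46 with an SE of 0.0653, a fold of 1.38, and a limma adjusted p of 0.00591. All 4 values lay above 0 (SD 0.0956), as they did for 11.3% of all genes. The call held without any 1 array (fitted log2 ratio 0.52 without array 4 with wild type), but not with the processed signals (0.49, limma adjusted p 0.109) or with the 4 arrays alone (0.46, limma adjusted p 0.0851). With the labelled triple mutant the values were -0.40, 0.15, -0.28 and -0.04, on both sides of 0. Their mean of -0.15 ± 0.247 (SD, n = 4) did not pass (limma adjusted p 0.355, 95% interval -0.30 to 0.00). The second RSC30 probe gave means of 0.47 ± 0.170 and -0.12 ± 0.202 (SD, n = 4 each), close to the first.

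RSC3 (YDR303C), the zinc cluster subunit that is essential for growth, passed in neither comparison. Its log2 ratio of the double mutant to wild type was -0.13, 0.19, -0.42 and 0.28. The mean was -0.02 with a 95% interval of -0.17 to 0.13 (limma adjusted p 0.899). Values with the labelled triple mutant were -0.21, 0.02, -0.13 and 0.07, a mean of -0.06 with an interval of -0.21 to 0.09 (limma adjusted p 0.769). RSC3 was below 0 on the 4 arrays with the double mutant in Cy5 and above 0 on the other 4, the reverse of the order seen for LDB7, and 3.96% of all genes had their 4 Cy5 ratios below their 4 Cy3 ratios. Its dye term did not pass (limma adjusted p 0.163). Taken on the same array, RSC30 exceeded RSC3 in log2 ratio by 0.48, 0.39, 0.89 and 0.16 on the 4 arrays with wild type. That difference averaged 0.48 ± 0.304 (SD, n = 4), and an exact two-sided sign-flip permutation test gave p = 0.125, the smallest that 4 arrays allow. With the labelled triple mutant the difference was -0.19, 0.13, -0.15 and -0.12, a mean of -0.08 ± 0.143 (SD, n = 4; p = 0.375 by the same exact test).

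NPL6 (YMR091C) encodes a module subunit whose mutants mislocalise nuclear proteins. Its log2 ratio of the double mutant to wild type was 0.17, -0.04, 0.04 and 0.24, with a mean of 0.10 and a 95% interval of -0.06 to 0.26 (limma adjusted p 0.399). The labelled triple mutant gave -0.19, 0.21, -0.08 and -0.00, a mean of -0.02 with an interval of -0.18 to 0.14 (limma adjusted p 0.949). Values lay on both sides of 0 in each comparison. HTL1 (YCR020W-B) encodes a small subunit needed for growth at high temperature. Its log2 ratio of the double mutant to wild type was -0.05, 0.04, -0.40 and 0.01, with a mean of -0.10 and an interval of -0.24 to 0.04 (limma adjusted p 0.350). The labelled triple mutant gave -0.19, -0.02, -0.17 and -0.04, a mean of -0.11 with an interval of -0.24 to 0.03 (limma adjusted p 0.486). HTL1 was thus below 0 on 6 of 8 arrays, and array 3 with wild type was its lowest. Without array 2 with the triple mutant, where both genes were dimmed, the fitted log2 ratio in that comparison was -0.08 for NPL6 and -0.10 for HTL1. Without array 4 with wild type, RSC3, NPL6 and HTL1 had fitted log2 ratios of -0.07, 0.07 and -0.10 there, none of them called. Of the 4 partners of LDB7, 1 was higher and 0 were lower in the double mutant than in wild type, and 0 were called with the labelled triple mutant, beside 3.23%, 4.97% and 1.59% of all genes.

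Signals of the single channels were read beside the ratios. LDB7 had a log2 level of 10.57 ± 0.276 in the double mutant, against 10.15 ± 0.153 in wild type (SD, n = 4 each). On the other arrays it had 11.03 ± 0.0853 in the channel labelled double mutant, against 10.67 ± 0.20 in the channel labelled triple mutant (SD, n = 4 each). LDB7 levels ranged over 10.91 to 11.12 against 10.48 to 10.89 for the labelled double and labelled triple mutant, which did not overlap. For the double mutant and wild type the ranges were 10.18 to 10.81 against 9.98 to 10.36, which overlapped. LDB7 was chosen by the ratios of these same channels. How many of all genes have levels that separate was not counted, so these LDB7 ranges are a description. For these levels the average intensities of the arrays were quantile-scaled to each other, which leaves the ratios unchanged. Levels of a single gene may still hold array differences. RSC30 averaged 11.22 ± 0.210 in the double mutant, against 10.76 ± 0.20 in wild type (SD, n = 4 each), and the ranges overlapped between arrays. RSC3 had 9.21 ± 0.163 in the double mutant and 9.23 ± 0.195 in wild type (SD, n = 4 each), which do not differ beyond their spread. HTL1 on array 2 with the triple mutant was at 6.39 and 6.41 in its 2 channels, against 10.09 to 10.41 on the other 3 arrays. NPL6 had 8.61 and 8.40 in the channels labelled double and triple mutant there. These levels were computed after loess scaling, which evens the dyes by intensity, so they cannot show how far each channel was dimmed.

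PDR3 (YBL005W) is the gene next to LDB7 and encodes a drug resistance transcription factor, a paralog of Pdr1. By their systematic names LDB7 reads from the Crick strand and PDR3 from the Watson strand, and the pair diverges. The log2 ratio of PDR3 was 0.78, 0.71, 0.54 and 0.21 in the double mutant against wild type. It rose by a mean of 0.56 ± 0.252 (SD, n = 4), a fold of 1.48 (limma adjusted p 0.0111). The labelled triple mutant gave 0.09, 0.38, 0.18 and 0.26, a mean of 0.23 ± 0.122 (SD, n = 4; limma adjusted p 0.319). PDR3 and LDB7 were both above 0 on all 8 arrays, as were 71 genes in all (1.1%), and array 1 with wild type was the highest for both. The dye term of PDR3 was 0.00 on the log2 scale, but with the labelled triple mutant both its ratios with the double mutant in Cy5 lay below both in Cy3. The PDR3 call against wild type was lost with the processed signals, with median centring, with the 4 arrays alone and without array 1 (fitted log2 ratio 0.47), and was kept without array 4 (0.70). In single channels PDR3 had 9.26 ± 0.0854 in the double mutant, against 8.70 ± 0.284 in wild type (SD, n = 4 each). The ranges were 9.16 to 9.36 and 8.38 to 9.07. SLA1, an actin regulator on the other side of LDB7, averaged -0.08 with wild type (limma adjusted p 0.559), so of both flanking genes only PDR3 was called.

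**Figure D2:**
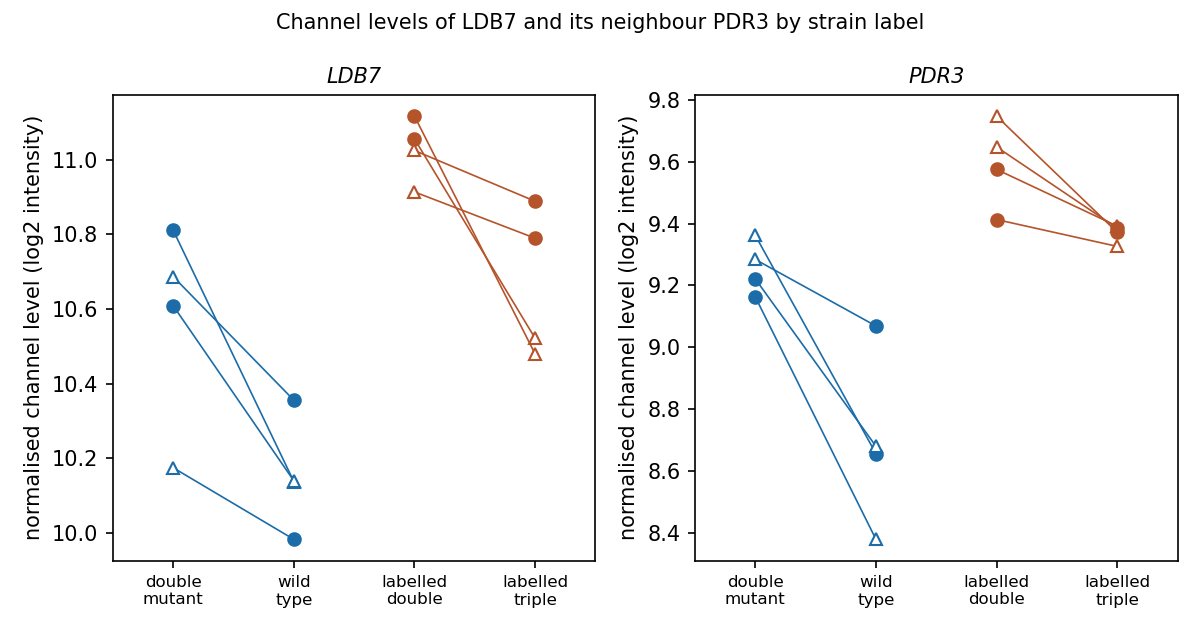
Log2 signal per channel (vertical axis) of LDB7 and of its divergent neighbour PDR3, with the double mutant left of wild type, and labelled double left of labelled triple mutant. Points are channels marked by dye, and lines join the channels of an array. Every line falls from left to right, by 0.12 to 0.67 for LDB7 and by 0.09 to 0.78 for PDR3.

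RSC30 also lay beside genes that were called. It adjoins the CUP1 repeat, a tandem array of the copper metallothionein gene that in its annotated form holds CUP1-1, CUP1-2 and YHR054C, a fragment that resembles part of RSC30. CUP1-1 rose in the double mutant against wild type, with log2 ratios of 0.22, 0.62, 0.29 and 0.59 (mean 0.43, limma adjusted p 0.0159). CUP1-2 rose with 0.25, 0.56, 0.33 and 0.50 (mean 0.41, limma adjusted p 0.00866). YHR054C rose with 0.37, 0.62, 0.49 and 0.46 (mean 0.48, limma adjusted p 0.00506). All 3 genes of the repeat were therefore called, against 8.2% of all genes, but these calls may not be separate measurements. Probe 1 of CUP1-2, not used above, gave 0.22, 0.63, 0.29 and 0.57, nearly the values of CUP1-1. Arrays 2 and 4, with the double mutant in Cy3, gave the higher CUP1 ratios. The labelled triple mutant gave means of -0.13, -0.10 and -0.16, and 0 of 3 calls, beside 1.59% of all genes. The CUP1-1 call was lost without array 2 with wild type (fitted log2 ratio 0.38) and under 5 other settings, and the processed signals or the 4 arrays alone also ended the calls of CUP1-2 and YHR054C. Without array 4 with wild type the fitted log2 ratios were 0.39 for CUP1-1, 0.39 for CUP1-2 and 0.55 for YHR054C, all called. Outside the repeat, CIC1, a ribosome assembly factor chosen after its value was seen, averaged -0.04 with wild type (limma adjusted p 0.796). CPR2, a cyclophilin gene on the other side of RSC30, averaged 0.17 (limma adjusted p 0.122).

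RSC30 and the fragment YHR054C gave nearly the same ratios, and without probe sequences, shared signal was not separated from genes that move together. Probe 2 of RSC30 and probe 1 of YHR054C differed in log2 ratio by at most 0.0211 on the 8 arrays, and probe 1 of RSC30 and probe 2 of YHR054C by at most 0.0585. The other 2 pairs of their probes differed by at most 0.106 each. Of 10 genes adjacent to members that were tested, 2 were called with wild type, PDR3 and CUP1-2, and 0 with the labelled triple mutant, beside 8.2% and 1.59% of all genes. The uncalled ones ran from -0.22 to 0.20 with wild type.

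**Figure D3:**
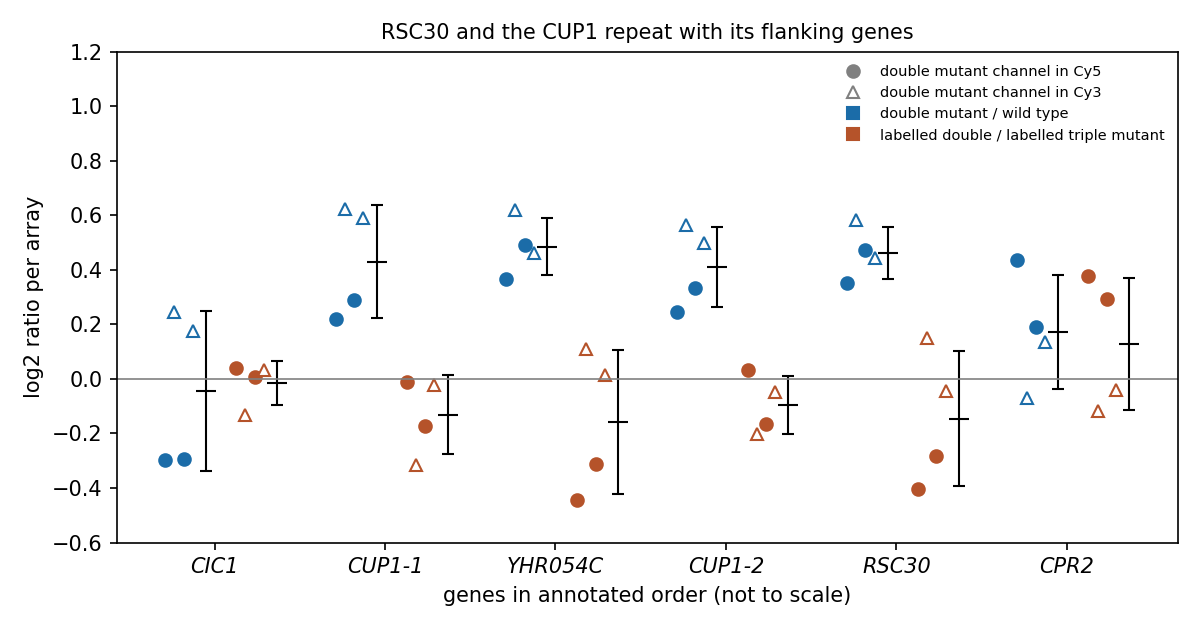
Log2 ratio (vertical axis) of RSC30 and the annotated CUP1 repeat with the flanking genes CIC1 and CPR2, in annotated order. Ratios are of the double mutant over wild type and of the labelled double over the labelled triple mutant. Points are arrays, dashes are means, and bars are SDs. RSC30, both CUP1 genes and YHR054C average 0.41 to 0.48 with wild type, while CIC1 and CPR2 outside them average -0.04 and 0.17.

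The remaining subunits of RSC gave no call. All 17 of 17 listed subunits were tested. Without LDB7, 1 of 16 was higher in the double mutant than in wild type, RSC30, and 0 were lower, beside 3.23% and 4.97% of all genes. Their median log2 ratio was -0.01, as was that of all genes. With the labelled triple mutant 0 of 16 were called (1.59% of all genes), with a median of -0.06, beside -0.00 over all genes. Of the 12 subunits outside the module, RSC9 was highest with wild type at 0.18 (limma adjusted p 0.06). It was above 0 on all 4 arrays, as were 11.3% of all genes. STH1, the ATPase, followed at 0.14 (limma adjusted p 0.175). RSC58 was lowest at -0.13. RSC6 had 0.05, while RSC4, RSC8 and SFH1 had 0.00, -0.00 and -0.00. RSC1 and RSC2, which encode alternative subunits of distinct forms of RSC, had -0.02 and -0.04. The actin-related subunits ARP7 and ARP9, shared with SWI/SNF, had -0.03 and -0.01, and RTT102, also shared, had -0.02. With the labelled triple mutant the 12 ran from -0.15 for RSC4 to 0.10 for ARP7.

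**Figure D4:**
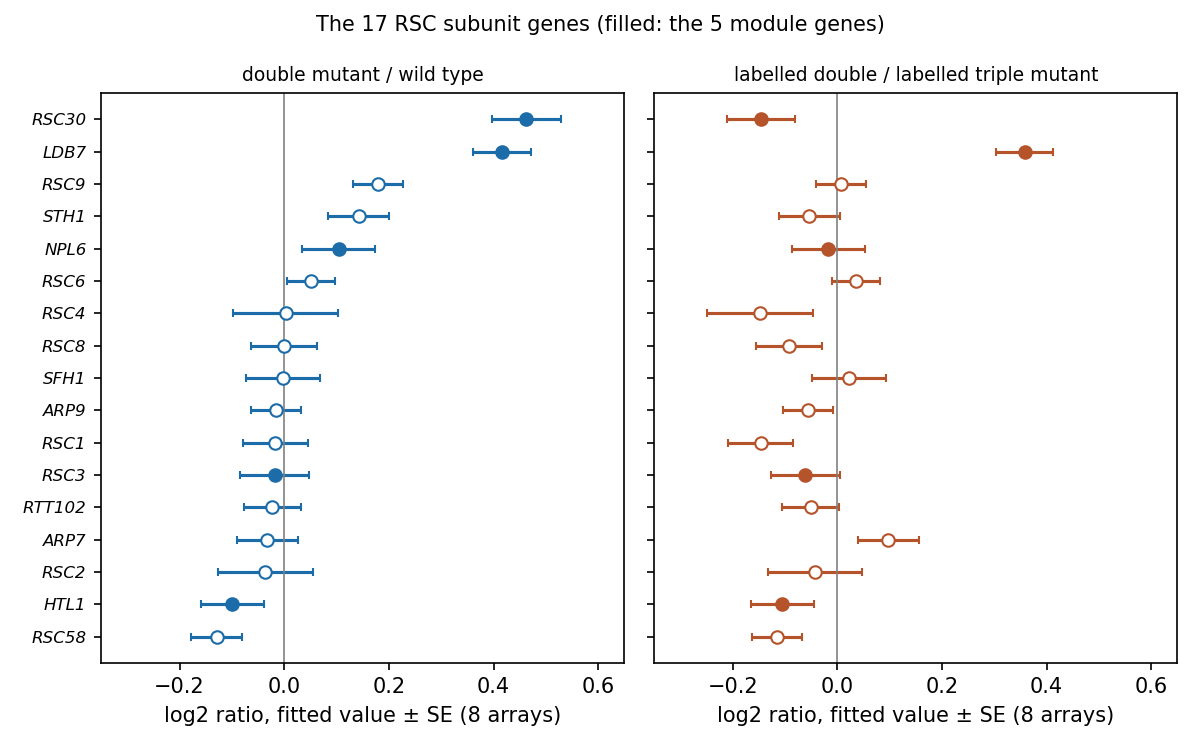
Log2 ratio of each of the 17 RSC subunits in rows (horizontal axis in log2 units), for both comparisons. Points are fitted values and bars are SEs of the fit on all 8 arrays, not SDs. Filled points mark the 5 module genes, and open points the other 12. LDB7 lies at 0.42 and 0.36 and RSC30 at 0.46 and -0.15. The subunits outside the module lie between -0.13 and 0.18 with wild type and between -0.15 and 0.10 with the labelled triple mutant.

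Other remodellers were read beside RSC. Of 12 SWI/SNF genes, which include the shared subunits, SNF6 fell by 0.31 on the log2 scale in the double mutant against wild type (limma adjusted p 0.0289), and the list's median was -0.01. That call was lost under 11 of 23 other settings, among them leaving out array 1 or 2 with wild type (fitted log2 ratios -0.26 and -0.27). The labelled triple mutant gave 0 SWI/SNF calls. Over all genes 8.2% were called with wild type and 1.59% with the labelled triple mutant. Of 34 genes of INO80, SWR1, ISW1, ISW2, CHD1 and FUN30, limma called 0 in either comparison, beside 8.2% of all genes with wild type and 1.59% with the labelled triple mutant. Over all genes 1591 had an unadjusted p below 0.05 with wild type and 947 with the labelled triple mutant.

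The cell wall mannan behind the name of LDB7 was followed through 16 genes of its synthesis, of which 1 was higher and 1 lower in the double mutant than in wild type, beside 3.23% and 4.97% of all genes. MNN4, a positive regulator of mannosylphosphate addition, rose with log2 ratios of 0.32, 0.79, 0.64 and 0.26 (mean 0.50, limma adjusted p 0.0210). The MNN4 call did not hold when array 1, 2 or 3 with wild type was left out (fitted log2 ratios 0.56, 0.40 and 0.43). It was also lost with median centring and with the 4 arrays alone. MNN1, an alpha-1,3-mannosyltransferase, fell by 0.44 on the log2 scale (limma adjusted p 0.00157), and was lower on all 4 arrays, a call not kept with the processed signals or with the 4 arrays alone. With the labelled triple mutant MNN1 was higher in the channel labelled double mutant, at 0.49 (limma adjusted p 0.00196), and MNN4 had -0.40 (limma adjusted p 0.0997), which passed under 5 of 23 other settings (-0.65 to -0.32 over the 23). The median of the list was 0.03 with wild type and -0.00 with the labelled triple mutant. LDB16, LDB17, LDB18 and LDB19, also named for low dye binding, gave 0 calls by limma in either comparison. Over all genes 8.2% were called with wild type and 1.59% with the labelled triple mutant, so few calls would be looked for among 4 genes.

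No array held the triple mutant and wild type together, so their contrast was formed from both coefficients of the fit. As labelled, RSC30 was higher in the triple mutant by 0.61 on the log2 scale (limma adjusted p 0.00607), while 573 of all genes were called (8.86%), 2.77% higher and 6.09% lower. With the second set of arrays turned, RSC30 had 0.32 (limma adjusted p 0.188), and 34 genes were called (0.526%), 0.371% higher and 0.155% lower. LDB7 had 0.06 as labelled and 0.77 turned, with no test. RSC3, NPL6 and HTL1 were called under neither reading. PDR3 had 0.33 as labelled (limma adjusted p 0.2) and 0.79 turned (limma adjusted p 0.0522).

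Over the 8 arrays, the genes whose log2 ratios were most like those of LDB7 by cosine similarity were PAU7, a seripauperin gene, at 0.979, CKS1, a subunit of the cyclin-dependent kinase, at 0.965, PAU12 at 0.961, YDR476C at 0.960 and DPM1, the dolichol phosphate mannose synthase, at 0.960. PAU7 followed LDB7 at a smaller size, with means of 0.15 with wild type and 0.14 with the labelled triple mutant. YDR476C was as large, at 0.48 and 0.33, and was below 0 on array 2 with the triple mutant. Among its partners the similarity to LDB7 was 0.25 for RSC30, 0.148 for NPL6, -0.443 for RSC3 and -0.718 for HTL1. All points share the same arrays and dyes, and these values are a description.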

How the data were processed

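Per the file headers, the authors ran Agilent Feature Extraction, version 10.7.3.1, and each deposited file lists, per spot and dye, a mean, a background and a processed intensity with flags. From these, mean intensities were corrected by normexp (offset 50) and scaled by loess within arrays in limma (version 3.58.1, R 4.3.3). For single-channel levels, average intensities were also quantile-scaled between arrays. Control spots were given no weight, and 60 outlier spots were set to missing. Probes well above background in at least 4 of 16 channel measurements were kept, and the brighter one stood for a gene. A limma model over the 8 arrays held a dye term and 1 coefficient per comparison, with Benjamini-Hochberg adjustment over 6465 genes and a threshold of 0.05. The code was tested on simulated data. The 8 value columns of the deposited series table were not used, since their names match no array. Members and lists were chosen with earlier results of these data known. Named genes are the members, all RSC subunits, up to 3 called genes per direction of each list, adjacent genes, genes called with 1 sign in both comparisons and the 5 most like LDB7. Mating type genes were a check on the strain: 7 of 9 were on the array, and 1, MFA2, was called, lower in the double mutant, with its lowest ratio on array 4 with wild type. Arrays sharing a number in both comparisons deviated with correlations of -0.175, 0.202, 0.0692 and -0.0613, so numbers were not taken to pair arrays.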

Additional observations from a re-analysis of the deposited data

Results flagged for a closer look

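RSC1, a bromodomain subunit of RSC, had a log2 ratio of -0.14 on array 3 of the double mutant against wild type, far from the next value of 0.01, and the gap was 0.863 of the whole range. It was the 1 of 52 groups of 4 arrays looked at over 26 genes in which an array stood apart, and chance alone gives about 1 in 20 groups.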

How the results depend on the processing

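Under the 23 alternatives LDB7 kept its direction and stayed within 1 SD, at 0.37 to 0.47 against wild type and 0.31 to 0.43 against the labelled triple mutant. Genes called against wild type, 530, came to 40 with the processed signals (31 higher, 9 lower), 54 with median centring (28 higher, 26 lower), 25 with the 4 arrays alone, 327 with array weights and 202 to 825 when leaving out an array (202 without array 1, 309 without array 3 and 825 without array 4 with wild type, and 334, 328 and 324 without arrays 2, 3 and 4 with the triple mutant); the 103 genes called against the labelled triple mutant came to 40 (14 higher, 26 lower), 21 (5 higher, 16 lower), 1250, 2577 and 23 to 472 under the same settings (25, 37, 23 and 23 without arrays 1 to 4 with the triple mutant, and 67 and 472 without arrays 3 and 4 with wild type), to 180 with dye-swap pairs as a random block and to 26 with pairs averaged. With the replicate block in place of the dye term, 244 and 40 genes were called. RSC30 against wild type was 0.49 (limma adjusted p 0.109) with the processed signals and 0.46 (limma adjusted p 0.0851) with the 4 arrays alone, and 0.41 to 0.52 when leaving out an array; against the labelled triple mutant it was -0.15 (limma adjusted p 0.00643) with array weights. RSC3 turned in sign with the processed signals, to 0.0656 and 0.0105, and was -0.0650 to 0.0678 against wild type when leaving out an array. HTL1 was 0.20 against wild type with the processed signals, 0.23 against the labelled triple mutant with median centring, and -0.11 (limma adjusted p 0.0202) with array weights. NPL6 against the labelled triple mutant was 0.0035 with no background correction, 0.0393 with the processed signals, 0.0712 with median centring and -0.0847 to 0.0288 when leaving out an array. The 1 partner called in the triple mutant against wild type became 0 with the processed signals. The cause was not tested. A dye term for each comparison was the 1 alternative added after seeing the data.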
